A study of Mus musculus with 6 samples.

Results

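The genes described here are 8 transcription factors that set regional and epithelial identity along the intestine: Cdx1, Cdx2, Gata4, Gata5, Gata6, Hnf4a, Hnf4g and Onecut2. They were chosen by symbol, and all 8 are among the 25339 genes of the deposited table. Colon of mice given the solvent DMSO (3 libraries) was compared with colon of mice given lenvatinib (3 libraries), an oral inhibitor of receptor tyrosine kinases, chiefly those for VEGF and FGF. The labels give no strain, age, dose or length of treatment, and do not say whether colitis, which the series title names, was induced. They number the libraries as biological replicates and name no animals, so the p-values measure the spread between libraries, part of which may be technical. Levels are in FPKM, fragments per kilobase of gene and per fixed number of fragments, which allows genes to be compared per length.

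CDX1 and CDX2 are homeodomain proteins that keep the gut epithelium intestinal rather than gastric, and CDX2 is required for intestinal fate. HNF4A and HNF4G are paired nuclear receptors that drive enterocyte genes of lipid handling and the brush border and largely substitute for each other. GATA4 is restricted to the proximal small intestine, where it holds back ileal genes, while GATA6 is present along the whole gut and ONECUT2 is a cut-homeodomain factor of the proximal small intestine. The comparison asks whether the factors that pattern the gut differed between the treatments.

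The data did not show a change of the main factors. Of the 5 members that averaged 1 FPKM or more over the 6 libraries (Cdx1, Cdx2, Hnf4a, Hnf4g and Gata6), 0 passed in limma on log2(FPKM + 1) with Benjamini-Hochberg adjustment, where 2.03% of the 11774 genes tested passed at 0.05, and 0 of the 5 had an unadjusted p below 0.05 against 22.0% of all genes tested. The widest 95% interval of a fold change, that of Hnf4g, ran from 0.908 to 1.37, and the narrowest, that of Cdx1, from 0.947 to 1.12. With the level of epithelial genes as a covariate 0 of the 5 passed as well, where 16.4% of all genes did. In bulk tissue, fewer cells of a type and less RNA per cell cannot be told apart. Gata5 was the exception among the rarer members: its level was 2.42 times as high with lenvatinib, without overlap of the groups, and it did not pass either. Gata4 and Onecut2 were close to absent in every library.

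Recovered depth was 37600320 to 39224874 reads in genes per library, so that Hnf4a rested on 34890 to 42009 reads and Gata6 on 1368 to 1593. In each group libraries 2 and 3 were close to identical, with a median absolute difference of 0.0524 (DMSO) and 0.0503 (lenvatinib) on the log2 scale over all genes tested, against 0.128 to 0.209 for the other 13 pairs of libraries. DMSO 1 alone had the Y-linked transcript Ddx3y (6.54 FPKM, against a listed 0 elsewhere) and next to no Xist (0.00147 FPKM, against 15.9 to 19.8). These are values of male tissue in DMSO 1 and of female tissue in the other libraries. Sex was thus not balanced between the groups, and cannot be told apart from other traits of DMSO 1. With libraries 2 and 3 of each group averaged, 3 genes of the whole table passed in place of 239. A fit without library 1 of a group leaves only libraries 2 and 3 in it. The p-values and counts of such a fit rest in part on the narrow spread of near-identical libraries. Car1, the carbonic anhydrase that marks colonocytes, was present in all 6 libraries at 7590 to 10357 FPKM.

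The levels fell into tiers whose order was the same in both groups. Cdx2, Hnf4a and Cdx1 formed the top tier, each at 183 to 235 FPKM. Cdx2 and Hnf4a, the first and second by mean, overlapped in both groups. Cdx1 lay below Hnf4a without overlap in both groups, with lenvatinib by a narrow margin (Cdx1 at most 193.5 FPKM, Hnf4a at least 193.7 FPKM). Gata6 and Hnf4g followed at 9.07 to 13.2 FPKM, with Gata6 above Hnf4g in every DMSO library and an overlap with lenvatinib. Gata5 lay at 0.472 to 1.54 FPKM, and Gata4 and Onecut2 below 0.1 FPKM.

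**Figure D1:**
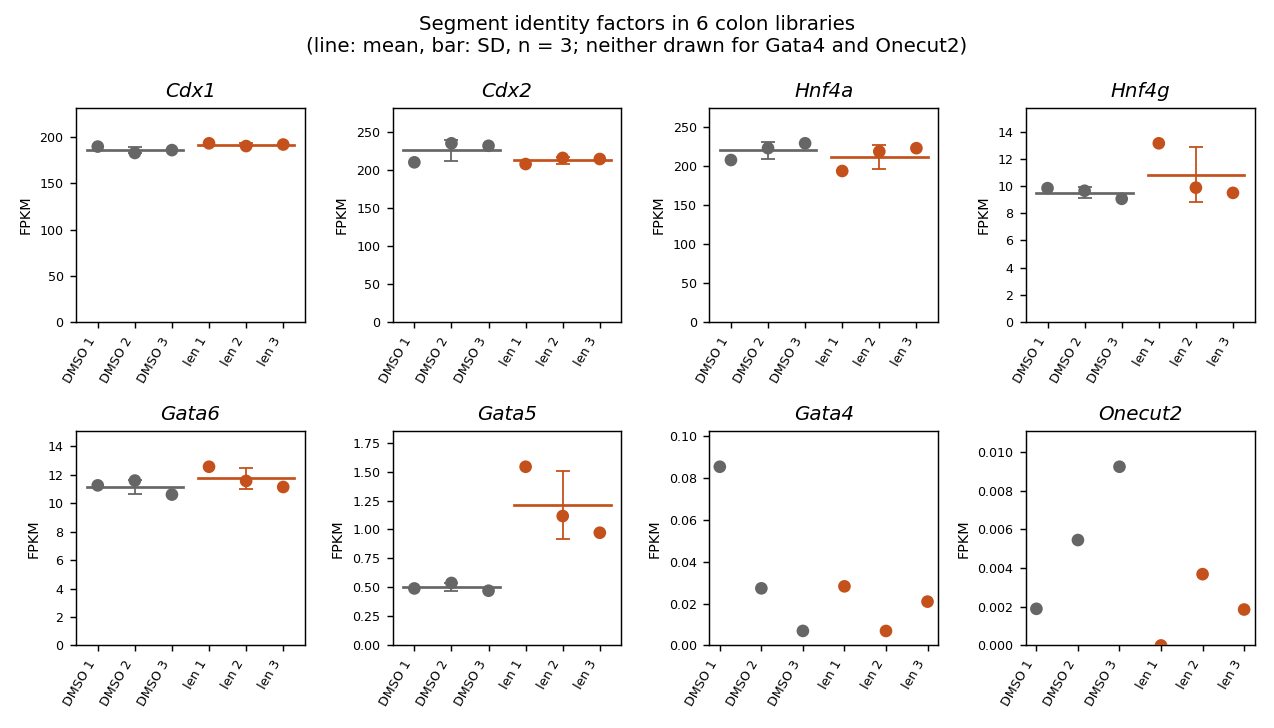
Level of each of the 8 factors (FPKM, y axis from 0) in the 3 DMSO and 3 lenvatinib (len) libraries (x axis), with points for libraries, lines for group means and bars for SD (both left out for Gata4 and Onecut2). Cdx1, Cdx2 and Hnf4a stay at 183 to 235 FPKM in every library, Gata5 is higher in each lenvatinib library, and Gata4 and Onecut2 sit near 0.

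Cdx1, a WNT-responsive factor of the crypt, stood at 189.9, 183 and 186 FPKM across DMSO 1 to 3, against 193, 190.5 and 192 FPKM across lenvatinib 1 to 3. Every lenvatinib value was above every DMSO value, by a small margin, making Cdx1 the 1 of 5 tested members without overlap, where 27.5% of all genes tested had none and 10.0% had none in this direction. The means were 186 ± 3.46 and 192 ± 1.5 (SD, n = 3), a log2 fold change of 0.04 (SE 0.0506; 95% interval −0.08 to 0.17; limma adjusted p = 0.609). The highest Cdx1 value was 1.06 times the lowest. Of the 7587 genes that averaged 5 FPKM or more, 0.646% spanned a smaller range over the 6 libraries.

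Cdx2, which specifies intestinal epithelium, stood at 210.4, 235 and 232 FPKM across DMSO 1 to 3, against 208, 216 and 215 FPKM across lenvatinib 1 to 3. DMSO 1 lay with the lenvatinib libraries, and the groups overlapped. The log2 fold change was −0.08 (SE 0.0649; 95% interval −0.24 to 0.07; limma adjusted p = 0.446). With sample weights, a setting under which 64.4% of all genes passed, Cdx2 passed as well (log2 fold change −0.11, adjusted p = 0.0153).

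The ratio of the CDX genes overlapped between the groups. Cdx1 was at 90.3, 77.7 and 80.1% of the Cdx2 level across DMSO 1 to 3, against 93, 88.1 and 89.5% across lenvatinib 1 to 3. The DMSO range reached into that of lenvatinib through DMSO 1 (difference 0.13 in log2 ratio, two-sided exact permutation p = 0.3, with 0.1 as the lowest p that 3 against 3 libraries can give; 0.5 adjusted over the 4 ratios compared). Without DMSO 1 these ratios did not overlap.

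Hnf4a, the more abundant HNF4 gene, stood at 208, 223 and 229 FPKM across DMSO 1 to 3, against 194, 219 and 223 FPKM across lenvatinib 1 to 3. Library 1 was the lowest of each group and the groups overlapped. The log2 fold change was −0.06 (SE 0.0778; 95% interval −0.24 to 0.13; limma adjusted p = 0.669), and its sign turned with median-of-ratios scaling (0.0120) and without lenvatinib 1 (0.00663).

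Hnf4a has alternative start regions, known as P2 (upstream) and P1 (downstream), whose transcripts code for proteins with different N termini. The table gives 1 value for the gene, so the 2 kinds of transcript cannot be told apart here. Entries in the RefSeq promoter table were found for 3 of the 8 members: Hnf4a, Cdx2 and Gata5. The 250 bases before each start are shown for build GRCm38.p6, together with those of Fabp6, an ileal gene that rose in the lists described below, to show the windows of members and of 1 gene that rose. Binding motifs of the members were looked for in these windows and in those of Isx and Nr1h4, described below, whose sequences are not shown. Capitals mark matches on either strand. For GATA proteins the letters searched were AGATAA and, as a second form, TGATAA. For CDX proteins they were TTTATG and for HNF4 proteins CAAAGTCCA. The windows are chr2:163506607-163506856 (plus strand) and chr2:163546905-163547154 (plus strand) for the Hnf4a starts, chr5:147307250-147307499 (minus strand) for Cdx2, chr2:180334680-180334929 (minus strand) for Gata5 and chr11:43601563-43601812 (minus strand) for Fabp6.
Hnf4a upstream start: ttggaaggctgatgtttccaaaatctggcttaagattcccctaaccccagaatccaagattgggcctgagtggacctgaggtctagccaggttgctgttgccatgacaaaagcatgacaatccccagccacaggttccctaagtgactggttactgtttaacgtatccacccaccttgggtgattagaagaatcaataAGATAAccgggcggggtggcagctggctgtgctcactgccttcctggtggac
Hnf4a downstream start: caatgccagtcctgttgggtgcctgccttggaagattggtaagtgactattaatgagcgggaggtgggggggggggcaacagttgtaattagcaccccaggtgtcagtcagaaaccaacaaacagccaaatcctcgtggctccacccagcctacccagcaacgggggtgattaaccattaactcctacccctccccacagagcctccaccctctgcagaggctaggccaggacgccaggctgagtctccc
Cdx2: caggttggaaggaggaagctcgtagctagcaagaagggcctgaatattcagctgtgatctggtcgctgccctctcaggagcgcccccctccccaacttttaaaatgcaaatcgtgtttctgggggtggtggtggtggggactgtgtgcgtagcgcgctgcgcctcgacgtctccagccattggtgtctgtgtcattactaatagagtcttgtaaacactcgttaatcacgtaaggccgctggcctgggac
Gata5: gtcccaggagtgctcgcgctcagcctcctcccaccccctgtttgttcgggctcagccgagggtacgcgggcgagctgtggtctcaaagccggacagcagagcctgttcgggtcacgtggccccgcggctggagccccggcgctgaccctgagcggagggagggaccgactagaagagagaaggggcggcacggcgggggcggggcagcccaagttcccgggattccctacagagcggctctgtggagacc
Fabp6: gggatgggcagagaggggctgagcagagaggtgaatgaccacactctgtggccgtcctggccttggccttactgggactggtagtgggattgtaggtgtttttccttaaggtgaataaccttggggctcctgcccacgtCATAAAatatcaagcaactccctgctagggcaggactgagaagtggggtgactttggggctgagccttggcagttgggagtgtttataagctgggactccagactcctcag

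The upstream Hnf4a window held a match to AGATAA, 52 bases before the start. AGATAA occurred in 9.99% of the 32851 windows of this length in the table. The Fabp6 window held a match to the CDX motif on the strand opposite to the printed one, where it reads CATAAA from 111 bases before the start. That motif occurred on either strand in 10.8% of all windows. The Nr1h4 window held matches to AGATAA and to the CDX motif, 131 and 75 bases before the start and both on the strand opposite to the gene, and the Isx window held none. Likewise, the downstream Hnf4a window and those of Cdx2 and Gata5 held no match to the 4 motifs. TGATAA was found in 7.94% and CAAAGTCCA in 0.384% of all windows. No match of these motifs overlapped another in the windows shown.

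Hnf4g, the intestinal partner of Hnf4a, stood at 9.85, 9.66 and 9.07 FPKM across DMSO 1 to 3, against 13.2, 9.89 and 9.50 FPKM across lenvatinib 1 to 3. Lenvatinib 1 stood above the other 5 libraries, which lay within 1 FPKM of each other. The log2 fold change was 0.16 (SE 0.123; 95% interval −0.14 to 0.46; limma adjusted p = 0.446), and without lenvatinib 1 it was 0.02. Hnf4g was at 4.74, 4.33 and 3.95% of the Hnf4a level across DMSO 1 to 3, against 6.79, 4.52 and 4.26% across lenvatinib 1 to 3. These shares overlapped (two-sided exact permutation p = 0.5).

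Gata6, the GATA factor of the whole gut, stood at 11.3, 11.6 and 10.6 FPKM across DMSO 1 to 3, against 12.6, 11.6 and 11.1 FPKM across lenvatinib 1 to 3. The groups overlapped. The log2 fold change was 0.07 (SE 0.07; 95% interval −0.10 to 0.24; limma adjusted p = 0.552). GATA6 is also expressed by smooth muscle, whose 10 genes on a marker list summed to 1417 to 1556 FPKM in DMSO and 1489 to 1806 FPKM with lenvatinib, with 0 of 10 passing. The part of smooth muscle in the Gata6 value was not tested.

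**Figure D2:**
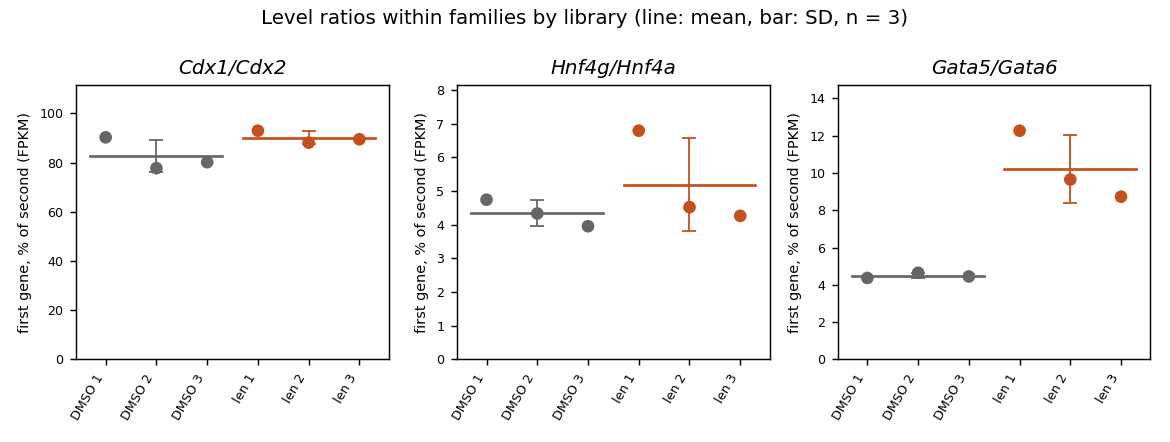
Level of the first gene as a percentage of the second (y axis, FPKM ratio, from 0) in each DMSO and lenvatinib (len) library, with group means and SD. Cdx1 is at 77.7 to 93% of Cdx2 and Hnf4g at 3.95 to 6.79% of Hnf4a with overlapping groups, while Gata5 is at 4.37 to 4.65% of Gata6 in DMSO and 8.72 to 12.3% with lenvatinib.

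Gata5, a GATA factor of the gut epithelium and of mesoderm, stood at 0.492, 0.539 and 0.472 FPKM across DMSO 1 to 3, against 1.54, 1.12 and 0.972 FPKM across lenvatinib 1 to 3. It rested on 63, 72 and 62 reads in DMSO and 199, 147 and 127 with lenvatinib. Every lenvatinib library lay above every DMSO library, as did 8.36% of the 23951 genes above 0. Its mean of 0.855 FPKM was under the limit for the main test. Fitted without that limit, the log2 fold change was 0.55 (SE 0.106; 95% interval 0.29 to 0.81) and it did not pass (limma adjusted p = 0.117, unadjusted 0.00215), where 0.585% of genes did. The value on this scale understates the change of so low a gene, and was 1.24 with voom on recovered reads (adjusted p = 0.0584).

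The Gata5 call depended on lenvatinib 1. Without that library Gata5 passed (log2 fold change 0.45, limma adjusted p = 0.0144), in a fit in which 15.8% of genes did. The fold change was then smaller than the 0.55 of all 6 libraries. The lenvatinib group held only the near-identical libraries 2 and 3, so this pass cannot be read as a clearer difference. Leaving out any other library gave a limma adjusted p of 0.184 to 0.388, and averaging libraries 2 and 3 of each group gave 0.853. Relative to Gata6 its level was 4.37, 4.65 and 4.45% across DMSO 1 to 3, against 12.3, 9.65 and 8.72% across lenvatinib 1 to 3, without overlap (two-sided exact permutation p = 0.1; 0.4 adjusted over the 4 ratios).

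Of 8 marker genes of the mesothelium, the lining of the outer gut wall, 3 with levels near that of Gata5 are given beside it, chosen after their values were seen. Msln, the mesothelial surface protein mesothelin, stood at 0.242, 0.614 and 0.519 FPKM across DMSO 1 to 3, against 2.07, 1.21 and 0.806 FPKM across lenvatinib 1 to 3. Upk3b, a uroplakin of mesothelium, stood at 0.439, 0.508 and 0.403 FPKM against 2.05, 0.993 and 1.26 FPKM. Upk1b stood at 0.854, 0.483 and 0.942 FPKM against 1.96, 1.46 and 1.30 FPKM. All 3 were above every DMSO value in the lenvatinib libraries, as were 8.36% of the 23951 genes above 0. These 3 were highest in lenvatinib 1, the library in which Gata5 was highest too.

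The other mesothelial markers did not all follow. Wt1 (0.125 ± 0.0462 and 0.176 ± 0.0893 FPKM, SD, n = 3) and Lrrn4 (0.187 ± 0.0354 and 0.229 ± 0.0623 FPKM) overlapped between the groups, as did Gpm6a and the mucin gene Muc16. The 8 genes of the list summed to 73.6 to 78.4 FPKM in DMSO and 89.8 to 93.1 FPKM with lenvatinib, most of it from the keratin Krt7, which the gut epithelium also expresses. Of the 3 list genes tested, 0 passed. The part of mesothelium in the Gata5 difference was not tested.

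**Figure D3:**
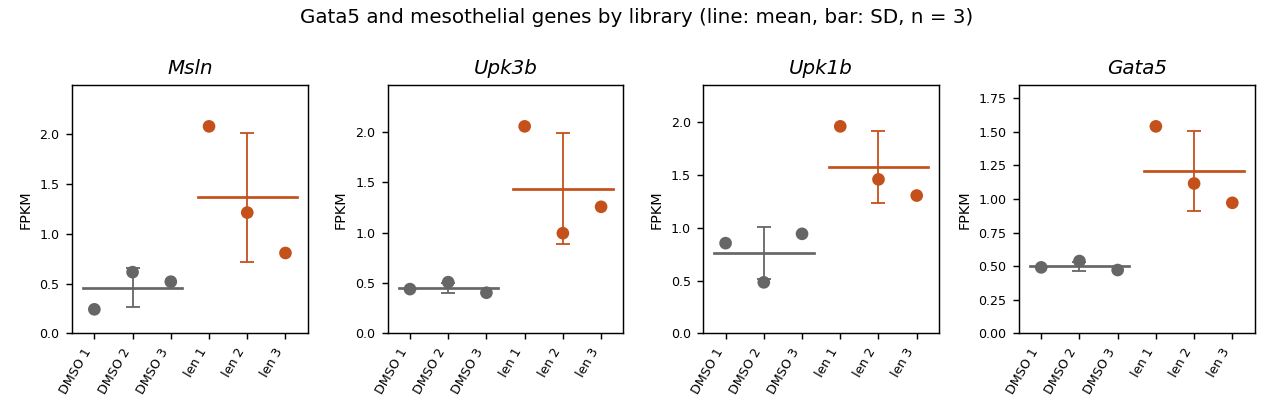
Levels (FPKM, y axis from 0) of 3 mesothelial genes and Gata5 in the 3 DMSO and 3 lenvatinib (len) libraries, with group means and SD. The lenvatinib values of all 4 genes lie above the DMSO values and peak in lenvatinib 1. The 3 mesothelial genes were chosen from 8 markers after their values were seen. Wt1, Lrrn4, Gpm6a and Muc16, not drawn, overlapped between the groups.

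Gata4, the factor of the proximal small intestine, rested on 12, 4 and 1 reads in DMSO 1 to 3 and 4, 1 and 3 reads in lenvatinib 1 to 3. Its highest level was 0.0854 FPKM, in DMSO 1, and the other 5 libraries were at 0.00692 to 0.0282 FPKM. Onecut2, likewise of the proximal small intestine, rested on 1, 3 and 5 reads in DMSO and 0, 2 and 1 with lenvatinib, at most 0.00923 FPKM. The count of 0 in lenvatinib 1 allows up to 3 reads, or at most 0.00568 FPKM. A difference between the groups could not be seen for either gene at this depth. In these libraries Gata4 was at 0.0598 to 0.759% of the Gata6 level.

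Since the share of epithelium can differ between pieces of colon, the factors were also set against 20 genes of the epithelial core, such as the adhesion molecule Epcam and the keratins Krt8 and Krt19. The core also holds Cdh17, Lgals4 and Vil1, which are among the genes linked to CDX or HNF4 proteins below. A change of such genes along with the members would be partly cancelled here and in the fit with the epithelial level as covariate. The mean log2 level of that core was 8.38, 8.34 and 8.34 across DMSO 1 to 3, against 8.31, 8.42 and 8.41 across lenvatinib 1 to 3 (two-sided exact permutation p = 0.6), and 0 of its 20 genes passed. Relative to the core, Cdx1 differed by 0.02, Cdx2 by −0.11, Hnf4a by −0.08, Hnf4g by 0.13 and Gata6 by 0.05 on the log2 scale, with overlapping groups for all 5. Gata5 differed by 0.53, without overlap (two-sided exact permutation p = 0.1; 0.6 adjusted over the 6 genes).

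Of 13 fibroblast genes 5 fell and of 15 leukocyte genes 5 fell, where 0.934% of all genes tested fell. With libraries 2 and 3 averaged both counts were 0. The leukocyte count was 1 with the replicate block, with libraries 2 and 3 as a random block and without DMSO 2, DMSO 3, lenvatinib 2 or lenvatinib 3. Without lenvatinib 1, 14 leukocyte and 9 fibroblast genes fell, in a fit in which 38.0% of all genes passed. The summed levels of the whole lists were 801 to 858 FPKM in DMSO and 521 to 671 FPKM with lenvatinib for fibroblasts, and 1134 to 2217 and 418 to 765 FPKM for leukocytes. Genes of stomach, pancreas and liver, organs that share HNF4, GATA and ONECUT factors with the gut, were mostly at or near 0. Of the 13 in the table, 2 averaged 1 FPKM or more (Cela1 and Ttr, both with overlapping groups), and Alb was at most 0.0996 FPKM.

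Few partner factors of the members passed, but many differed before adjustment. Of 6 tested, 4 had an unadjusted limma p below 0.05, against 22.0% of all genes tested. The groups did not overlap for 4 of the 6 (3 lower and 1 higher with lenvatinib), against 27.5% of all genes tested. After adjustment 1 of the 6 fell, 0 rose and 5 did not pass, where 0.934% of all genes tested fell. The median log2 fold change of these paralogues and cofactors was −0.14, against −0.07 for all genes tested. The one that fell was Foxa3, a forkhead factor of endoderm, at 13.5, 11.5 and 11.1 FPKM across DMSO 1 to 3, against 7.63, 6.93 and 6.28 FPKM across lenvatinib 1 to 3. The groups did not overlap (log2 fold change −0.71, SE 0.102; limma adjusted p = 0.0271). Under 8 of 20 alternatives (adjusted p over all 20 from 4.74e-05 to 0.489) Foxa3 no longer passed, and leaving out DMSO 2, DMSO 3, lenvatinib 2 or lenvatinib 3 was each enough for that.

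The forkhead factor genes Foxa1 and Foxa2 overlapped between the groups. The blood-lineage factors Gata1 and Gata2 were at 0.162 ± 0.0794 and 0.973 ± 0.0978 FPKM in DMSO and lower in each lenvatinib library (0.0118 ± 0.0205 and 0.486 ± 0.133 FPKM), below the limit for the test. Mast cells express both, and the summed level of the leukocyte genes was lower in the same libraries, as given above. The part of such cells in these values was not tested.

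Of 30 other epithelial transcription factors tested, 3 rose, 0 fell and 27 did not pass, where 1.1% of all genes tested rose. The count was 0 with the replicate block, with libraries 2 and 3 averaged and without DMSO 2. It was 1 with libraries 2 and 3 as a random block and without DMSO 3, lenvatinib 2 or lenvatinib 3. Without DMSO 1, 5 rose and 1 fell, where 270 of all 11774 genes passed. Without lenvatinib 1, 11 rose and 4 fell, in a fit in which 38.0% of all genes passed. The 3 that rose were Nr1h4, Osr2 and Isx. The 30 had a median log2 fold change of 0.11. The Krüppel-like factor genes Klf4 and Klf5 and the vitamin D receptor gene Vdr did not pass.

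Nr1h4 encodes FXR, the bile acid receptor that is most active in ileum. Its level was 32.9, 32.1 and 33.3 FPKM across DMSO 1 to 3, against 62.1, 54.2 and 55.5 FPKM across lenvatinib 1 to 3. The DMSO libraries lay close together and the lenvatinib libraries all above them (log2 fold change 0.79, SE 0.0687; limma adjusted p = 0.00539). Nr1h4 failed to pass under 4 of 20 alternatives (adjusted p over all 20 from 6.32e-06 to 0.265): the replicate block, the average of libraries 2 and 3, and the fits without DMSO 2 or without DMSO 3.

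Isx, a homeobox gene that CDX2 activates and that restrains vitamin A uptake, stood at 59.6, 67.9 and 69.9 FPKM across DMSO 1 to 3, against 88.3, 107.5 and 105 FPKM across lenvatinib 1 to 3. The groups did not overlap, and the call was narrow (log2 fold change 0.60, SE 0.102; limma adjusted p = 0.0474). Under 11 of 20 alternatives Isx did not pass, and of the 6 libraries lenvatinib 1 was the one whose omission kept the call. Osr2, a zinc finger factor of the odd-skipped family, stood at 2.96, 2.71 and 3.70 FPKM across DMSO 1 to 3, against 7.04, 8.58 and 9.55 FPKM across lenvatinib 1 to 3. It rose without overlap (log2 fold change 1.19, SE 0.135; limma adjusted p = 0.0130), a call lost in 6 of 20 alternatives, including those without DMSO 2, lenvatinib 2 or lenvatinib 3.

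**Figure D4:**
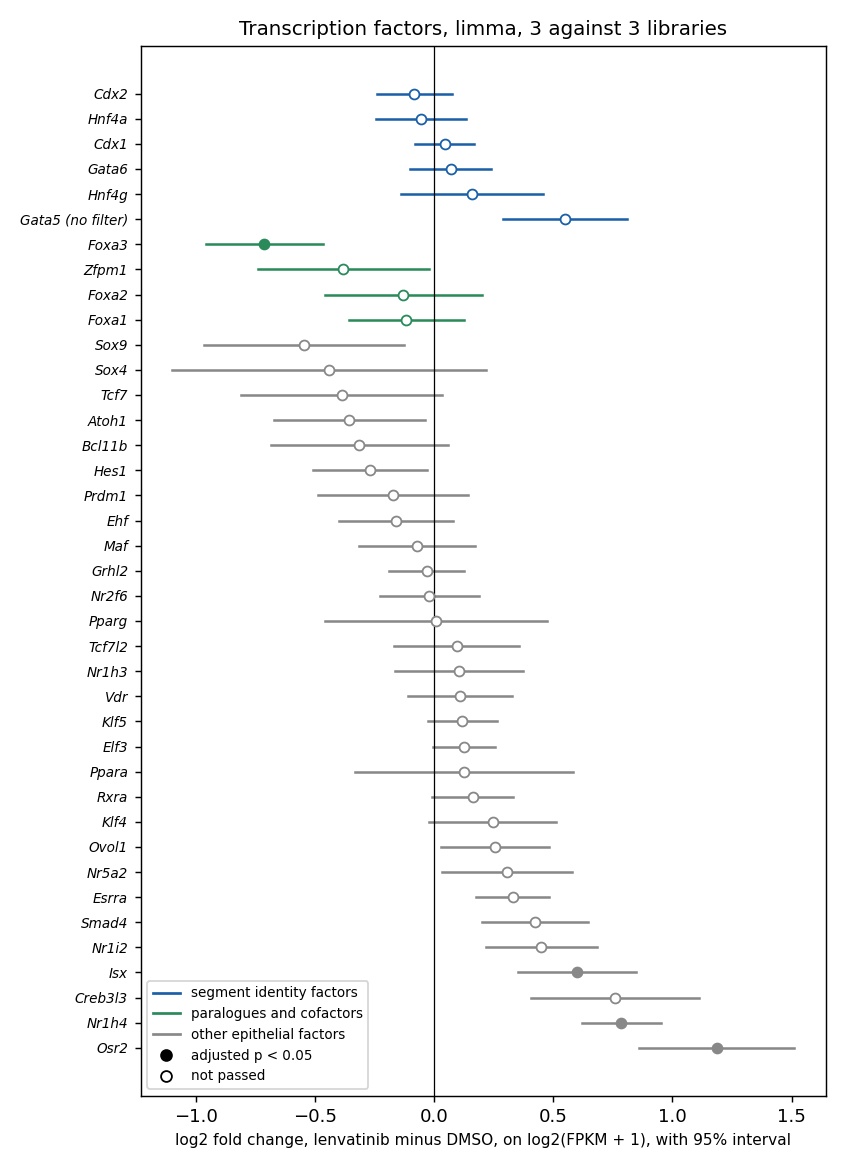
Log2 fold change, lenvatinib minus DMSO, on log2(FPKM + 1) (x axis) with 95% interval for the 5 tested segment identity factors, Gata5 fitted without the limit on low levels, 4 of the 6 paralogues and cofactors and 29 of the 30 other epithelial factors (y axis). Filled points passed at an adjusted p below 0.05: Foxa3 lower, and Isx, Nr1h4 and Osr2 higher.

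Genes that the members are known to bind or to control were counted next, from lists written from general knowledge and with earlier results of these data known. Of 24 tested genes linked to HNF4 proteins 3 rose, 0 fell and 21 did not pass, where 1.1% of all genes tested rose. Their median log2 fold change was 0.34. Without the limit on the mean 2 of 30 rose, where 0.585% of all genes passed. Mttp, which loads lipid onto apolipoprotein B, rose from 0.331 ± 0.0868 to 3.24 ± 0.242 FPKM (SD, n = 3; log2 fold change 1.67, limma adjusted p = 0.00103). The apolipoprotein gene Apoa1 was at 0.506, 0.230 and 0.208 FPKM across DMSO 1 to 3, against 6.16, 39.98 and 40.3 FPKM across lenvatinib 1 to 3 (limma adjusted p = 0.0441). Brush border genes of the same list did not pass: the protocadherin gene Cdhr2 measured 175 to 180.3 FPKM in DMSO and 161 to 239 FPKM with lenvatinib, and Vil1, for villin, 293 to 321 and 303 to 325 FPKM. Without lenvatinib 1, 18 of the 24 rose, in a fit in which 38.0% of all genes passed. Without DMSO 2, DMSO 3, lenvatinib 2 or lenvatinib 3 the count was 1 each, and with libraries 2 and 3 averaged it was 0.

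Of 19 tested genes linked to CDX proteins (median 0.12), against 1.1% of all genes tested that rose, 17 did not pass, 0 fell and 2 rose. They were Isx and Sis, the brush border sucrase-isomaltase, which went from 0.0702 ± 0.0310 to 2.91 ± 1.14 FPKM (SD, n = 3; limma adjusted p = 0.0179). Cdh17, the intestinal cadherin that CDX2 activates, measured 299 ± 11.8 and 309 ± 3.78 FPKM (log2 fold change 0.05, limma adjusted p = 0.623). Without lenvatinib 1, 8 of the 19 rose and 1 fell, in the fit in which 38.0% of all genes passed. Leaving out any of the other 5 libraries left 0 of the 19. Without the limit on the mean 1 of 22 rose, where 0.585% of all genes passed.

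Of 10 tested genes known to depend on GATA4 or GATA6 in the small intestine 5 rose, 0 fell and 5 did not pass. Among all genes tested 1.1% rose. The median of the 10 was 1.24. The limit on the mean lets in genes such as Sis through their lenvatinib values. Without that limit 5 of 22 list genes rose, with a median of 0.63, where 0.585% of all genes passed. The list mixes genes that GATA4 activates, such as Lct, with ileal genes such as Fabp6 and Slc10a2, a kind that GATA4 holds back. Rises on it therefore have no single meaning for GATA activity. Fabp6, which encodes a carrier of bile acids in ileal cells and whose promoter window is shown above, stood at 1.44, 2.28 and 2.27 FPKM across DMSO 1 to 3, against 161, 159.8 and 148 FPKM across lenvatinib 1 to 3. The groups were far apart (log2 fold change 5.73, SE 0.126; limma adjusted p = 2.01e-05), and Fabp6 passed under 20 of 20 alternatives. The ileal bile acid importer gene Slc10a2 rose from 1.79 ± 1.01 to 10.1 ± 3.01 FPKM (SD, n = 3; limma adjusted p = 0.0346), the Paneth cell lysozyme gene Lyz1 from 7.34 ± 1.48 to 38.9 ± 7.77 FPKM (SD, n = 3; limma adjusted p = 0.00539), and Sis as above. The Paneth cell defensin gene Defa24, also of this list, has near-identical copies, and Lyz1 a close paralogue, so both are uncertain as single genes. Leaving out DMSO 2, DMSO 3, lenvatinib 2 or lenvatinib 3 left 3 calls each, and averaging libraries 2 and 3 left 1. Leaving out lenvatinib 1 gave 7, in a fit in which 38.0% of all genes passed. Lct, the lactase gene that GATA4 activates in jejunum, stayed at 0.00418 to 0.0296 FPKM in all 6 libraries, and Fabp1 at 0.0986 to 0.668 FPKM.

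These lists share members with that of small intestinal enterocytes. Of its 24 tested genes 11 rose, 0 fell and 13 did not pass, where 1.1% of all genes tested rose. The median was 0.81. The limit on the mean lets in genes such as Mttp through their lenvatinib values. Without that limit 9 of 37 rose, with a median of 0.63, where 0.585% of all genes passed. Without lenvatinib 1, 18 of the 24 rose, in a fit in which 38.0% of all genes passed. Without DMSO 3 the count was 3, without DMSO 2, lenvatinib 2 or lenvatinib 3 it was 4 each, and with libraries 2 and 3 averaged it was 1. Of 13 tested Paneth cell genes 9 rose and 0 fell, against the same 1.1% of all genes tested, and with libraries 2 and 3 averaged 0 rose. Among the 9 were the defensin genes Defa17, Defa21, Defa22, Defa24, Defa30 and Defa39. Reads of near-identical copies can be shared, so the 9 cannot be counted as separate results. The list did not move as a whole: Ang4, Mptx1 and Spink4 were lower in each lenvatinib library without passing, and its summed level was 1402 to 5060 FPKM in DMSO and 1018 to 1476 FPKM with lenvatinib. Of 26 tested genes of colonic epithelium 0 rose and 1 fell, where 0.934% of all genes tested fell. Their median was 0.19. Without lenvatinib 1, 14 of the 26 rose and 2 fell, with a median of 0.37, again where 38.0% of all genes passed. The gene that fell in the fit of all 6 libraries was Ly6g6c, at 2.91 ± 1.12 and 0.456 ± 0.282 FPKM (SD, n = 3; limma adjusted p = 0.0474), which did not pass under 13 of 19 alternatives, including each omission of a library other than lenvatinib 1.

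**Figure D5:**
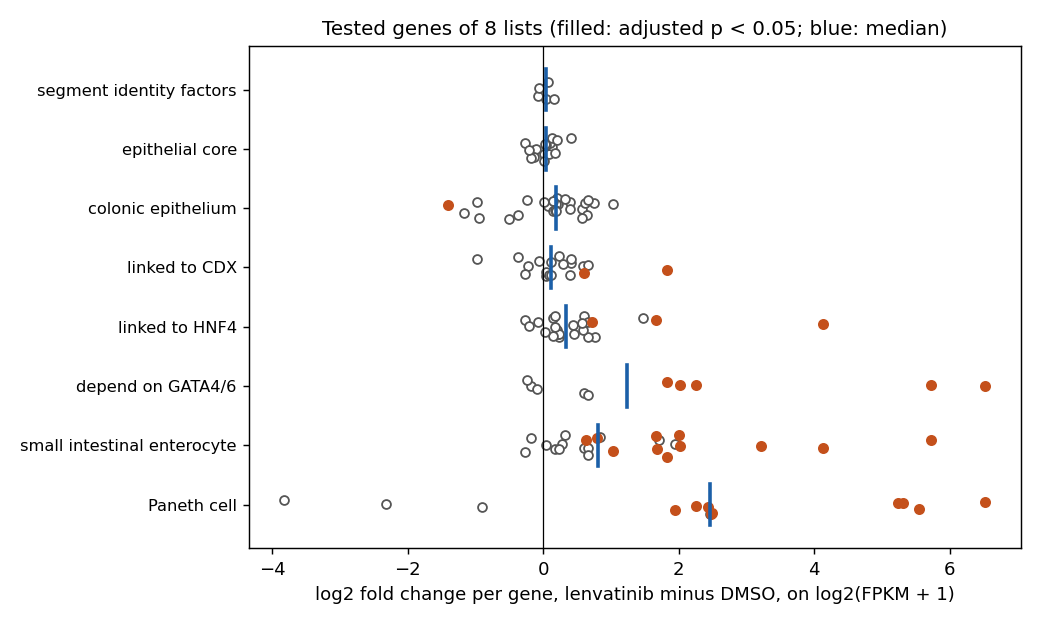
Log2 fold change per tested gene, lenvatinib minus DMSO, on log2(FPKM + 1) (x axis) for 8 lists (y axis), with filled points for adjusted p below 0.05 and a blue line for the median of each list. The 5 tested segment identity factors and the 20 epithelial core genes lie close to 0 with 0 passing, while 11 of 24 small intestinal enterocyte genes and 9 of 13 Paneth cell genes are filled and to the right. Of all genes tested 1.1% rose. Without the limit on low levels 9 of 37 small intestinal enterocyte genes rose, where 0.585% of all genes passed. Several of the filled Paneth cell genes are defensin genes with near-identical copies.

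The genes whose profiles over the 6 libraries were most like those of the members were searched among 7461 named genes that averaged 5 FPKM or more, by the root mean square difference of centred log2(FPKM + 1) values. They were Sec31a and Plxnb2 for Cdx1 (0.00912 and 0.0103), Tbl1xr1 and Stx7 for Cdx2 (0.00882 and 0.0143), and Mrps31 and Fbxw11 for Hnf4a (0.0107 and 0.0210). Armh3 and Nipsnap3b were nearest to Gata6 (0.0118 and 0.0169) and Cryab and Ero1a to Hnf4g (0.0318 and 0.0331). The libraries that these values share include the near-identical pairs described above.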

How the data were processed

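RNA of mouse colon was measured in 6 libraries, isolated with TRIzol and made into libraries with the VAHTS Universal V10 reagents (per the labels' protocols). The authors deposited FPKM values for 25339 genes. Per the submitters' processing notes, HTSeq was used and the genome build was GRCm39. Which aligner, annotation, strand option and filters were applied is not given in the sources used here. Columns were assigned by the label text, which spells the DMSO column names slightly differently from the table. Members were found by symbol. The reference is GRCm38, so coordinates are given only for promoter sequences, credited to RefSeq on GRCm38.p6.

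Whole reads were recovered from the FPKM steps for 23943 of 23951 genes above 0 (99.97%, within 0.01 reads) and used for depth and in voom. Groups were compared with limma 3.58.1 (R 4.3.3) on log2(FPKM + 1), pseudocount 1, for genes averaging 1 FPKM or more, with a trended and robust prior, two-sided, adjusted by Benjamini-Hochberg, and was tested on simulated data. For single values an exact permutation test used the 20 regroupings. The 20 alternatives cover pseudocount, filter, scaling, prior, weights, pairing, composition and left-out libraries. The members and the 18 gene lists were chosen with earlier results of these data known. Named are the members, up to 4 genes of each list by unadjusted p and 2 genes most like each member. The other genes named from the lists were chosen after their values were seen. Many genes that this rule selects, some of them counted in the text and left out of the plot of factors, are not reported here.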

Additional observations from a re-analysis of the deposited data

How the results depend on the processing

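The 5 tested members had 0 calls in 19 of 20 alternatives and 1, Cdx2, with sample weights (1). Hnf4a turned sign with median-of-ratios scaling (0.0120) and without lenvatinib 1 (0.00663; −0.0966 to 0.00663 with 1 library left out), and the cause was not tested. Over all genes, 239 passed, against 140 without the filter, 7582 with sample weights, 1936 with the epithelial core level as covariate, 29 with the replicate block, 3 with libraries 2 and 3 averaged, 46 with them as a random block, and 45 to 4479 when 1 library was left out (4479 without lenvatinib 1). For paralogues and cofactors the count of 1 passing in either direction became 0 without the filter and with the replicate block. It was also 0 with libraries 2 and 3 averaged or as a random block, 6 with sample weights (1 higher, 5 lower), and 0 to 3 with a library left out. For other epithelial factors the count of 3 passing in either direction became 23 with sample weights (15 higher, 8 lower) and 9 with the core covariate (7 higher, 2 lower). It was 0 with the replicate block and with libraries 2 and 3 averaged, 1 with a random block, and 0 to 15 with a library left out. Relative to the epithelial core 1 of 6 members did not overlap between groups, and 1 to 3 with a library left out (3 without DMSO 1). Of the 4 family ratios 1 did not overlap, 2 with libraries 2 and 3 averaged, and 1 to 2 with a library left out (2 without DMSO 1 or DMSO 3). For plain levels in all 6 libraries, the groups did not overlap for 27.5% of all genes tested. The share on these relative scales was not computed. With fewer libraries less has to lie apart, and without DMSO 1 only the near-identical DMSO 2 and 3 remain in that group. The higher counts therefore cannot be read as clearer differences. The settings that give Gata5 values other than without the filter were chosen after seeing the data. Whether the replicate numbers pair the samples could not be settled. Deviations of same-numbered libraries correlated at −0.196, −0.159 and −0.151, and no library correlated best with its own number. As libraries 2 and 3 are near-identical, these values rest mostly on how library 1 of each group differed from them. The replicate block changed no call of the members. Depth limits only Gata4 and Onecut2, at 12 reads or fewer per library, and counting intervals do not cover other error.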
